A study of Caenorhabditis elegans with 6 samples.

Results

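The 10 genes described here, asp-1, asp-2, asp-3, asp-4, asp-5, asp-6, asp-13, asp-14, asp-16 and asp-17, encode aspartyl proteases of the nematode Caenorhabditis elegans. They were chosen by gene symbol, with the read counts of these libraries already known, and are 10 of 18 genes of the asp family that had a transcript record, among 39875 named genes. Each has a single RefSeq transcript record, so no reads could be split between records of the same gene, and all 10 passed the filter on low counts. Of these, asp-16 and asp-17 passed only by way of N2, the group where they were high. RNA came from whole L1 larvae, the earliest larval stage, that hatched and starved overnight in buffer. The libraries form 2 groups of 3 replicates. One is the double mutant spr-5; met-2, carrying spr-5(by101) on chromosome I and met-2(n4256) on chromosome III, and the other is the wild-type strain N2. SPR-5 removes methyl groups from histone H3 in the manner of LSD1. MET-2 adds methyl groups at a different site of histone H3, in the manner of SETDB1. The study asked which genes the progeny of the mutant express at another level than wild type. Animals of both groups were cultured on HT115 bacteria at 20 °C, and RNA of each library came from about 1000 to 1500 pooled larvae that hatched at 21 to 22 °C. Nothing in the labels says whether replicates came from separate cultures, so errors and p-values cover the spread among these 3 libraries a group and no more, and that spread may be technical.

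Aspartyl proteases of this family are relatives of pepsin and cathepsin D. They are made as inactive precursors with a signal peptide and cut proteins at acid pH, using a pair of aspartate residues in the active site. In the worm many of them are made in the intestine, where proteases act both in lysosomes and in the gut lumen. The ortholog of human cathepsin D is asp-4, and asp-3 and asp-4 are known for their part in necrotic death of neurons. The gene asp-1 is known as an intestinal gene, and asp-17 is known as a target of the transcription factor ZIP-10 in the response to cold.

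Libraries held 17062557 to 25368364 counts in the double mutant and 20010959 to 22014739 in N2. Levels are CPM, counts relative to the library total, scaled by TMM, a normalisation that assumes most genes are unchanged, and levels are compared between genes only after division by exonic length (CPM per kb). Log2 fold changes are spr-5; met-2 over N2 from edgeR's quasi-likelihood test across 14557 transcript records, whose median was -0.01. The mutated genes did not check the labels, as reads of both remained: spr-5 had 123 ± 6.58 CPM in the double mutant and 53.8 ± 10.7 CPM in N2, and met-2 had 82.7 ± 4.04 CPM in the double mutant and 111 ± 9.36 CPM in N2 (SD, n = 3 each). Where in each gene its allele lies relative to these reads is not given in the labels.

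As a group the 10 genes were less abundant in the mutant larvae. Together they took 1.48%, 1.19% and 1.24% of all counts in replicates 1, 2 and 3 of the double mutant, against 1.97%, 2.06% and 1.77% in N2. Of the 10, 9 had a negative log2 fold change and 1, asp-4, a positive one, with a median of -0.89. In 8 genes every mutant library lay below every N2 library, as did 21.3% of all tested records, none lay wholly above N2, as 22.3% of all records did, and in asp-4 and asp-14 the groups overlapped. An edgeR adjusted p below 0.05 was reached by 7 genes, all lower, as it was by 11.7% of all tested records in that direction and by 25.9% in either. None of the 10 was higher at that threshold, as 14.3% of all records were, nor at an unadjusted p below 0.05, nor in DESeq2. The genes were chosen with this comparison known, so these counts describe them and test nothing. The counts of 8 and 7 include asp-16 and asp-17, which passed the filter on low counts only by way of N2. The count of 7 was 4 without mutant replicate 2 and 4 without its replicate 3, where asp-1, asp-3 and asp-6 missed the threshold. It was 5 without N2 replicate 2, where asp-1 and asp-6 missed it.

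**Figure D1:**
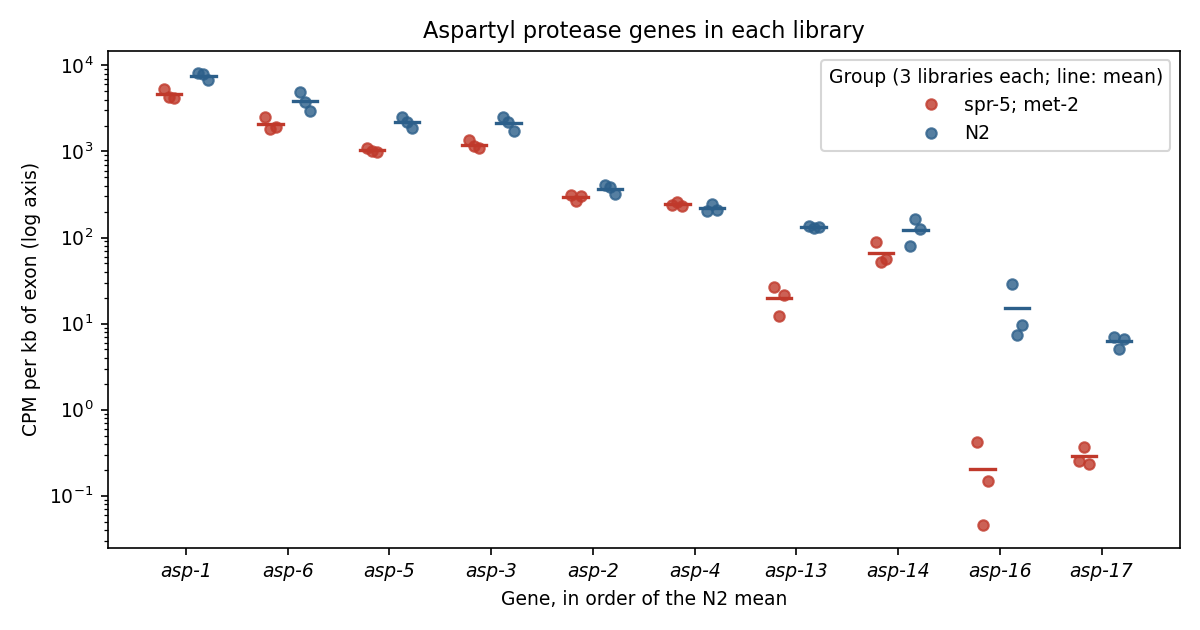
CPM per kb of exon on a log axis for the 10 aspartyl protease genes, ordered by their N2 mean; points are single libraries (3 of spr-5; met-2 on the left, 3 of N2 on the right of each pair) and lines are group means. The levels span asp-1, at 4631 in spr-5; met-2 and 7620 in N2, to asp-16 and asp-17, which lie below 1 in every mutant library.

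Levels differed far more between the genes than between the groups. In CPM per kb the order in the double mutant was asp-1, asp-6, asp-3, asp-5, asp-2, asp-4, asp-14, asp-13, asp-17 and asp-16. In N2 it was asp-1, asp-6, asp-5, asp-3, asp-2, asp-4, asp-13, asp-14, asp-16 and asp-17. In 3 pairs the genes changed places, asp-3 with asp-5, asp-13 with asp-14, and asp-16 with asp-17. The libraries of asp-3 and asp-5 overlapped in both groups, those of asp-13 and asp-14 in N2, and those of asp-16 and asp-17 in the double mutant, and all other neighbours in either order were separated. The plot of levels by library shows this ladder, with asp-16 and asp-17 below all others in both groups.

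The most abundant genes were asp-1, asp-6, asp-3 and asp-5, which together held 92.4% to 93.3% of the counts of the 10 in the double mutant and 93.9% to 95.2% in N2. The gene asp-1 stood at 6365, 5147 and 5036 CPM in replicates 1, 2 and 3 of the double mutant, against 9631, 9553 and 8042 CPM in those of N2. All mutant libraries were below all N2 libraries, and the fitted level was 60.8% of that in N2, or on the log2 scale a fold change of -0.72 ± 0.17 (SE). Replicate 1 of the double mutant was the highest of its group.

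The gene asp-6, a neighbour of asp-5 on chromosome V, stood at 3184, 2325 and 2449 CPM in the double mutant, against 6211, 4849 and 3740 CPM in N2. Its groups did not overlap, but its N2 libraries were spread widely (coefficient of variation 25.1%), and its log2 fold change was -0.90 ± 0.22 (SE). The level of asp-5 was 1367, 1241 and 1224 CPM in the double mutant, against 3120, 2731 and 2315 CPM in N2. Its log2 fold change of -1.09 ± 0.15 (SE) was the lowest of the 4, and the highest mutant library lay well under the lowest N2 library. Of asp-3 there were 1962, 1691 and 1607 CPM in the double mutant, against 3714, 3213 and 2515 CPM in N2, at -0.84 ± 0.18 (log2 fold change, SE). In all of asp-1, asp-3, asp-5 and asp-6, replicate 1 was the highest library of each group.

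The remaining moderately expressed genes were closer between groups. The gene asp-2 stood at 434, 371 and 419 CPM in the double mutant, against 557, 536 and 438 CPM in N2, with a log2 fold change of -0.32 ± 0.14 (SE) that did not pass the threshold. The highest mutant and the lowest N2 library nearly touched. The cathepsin D ortholog asp-4 stood at 345, 378 and 340 CPM in the double mutant, against 296, 361 and 307 CPM in N2. Its groups overlapped, and its log2 fold change was 0.14 ± 0.12 (SE). The counts of asp-3, divided by those of asp-4 in the same library, gave 5.69, 4.47 and 4.73 in the double mutant, against 12.5, 8.91 and 8.19 in N2. That ratio does not depend on how libraries are scaled, and its groups did not overlap. This separation follows from the levels given above, as asp-3 was lower in the double mutant and asp-4 was not, and it tests nothing.

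Reads of asp-2 and asp-4 may include some from genes on the opposite strand, because no source used here gives the strand setting of the counting. The exons of asp-2 overlap those of inx-10, an innexin gene, over 220 bases, and those of asp-4 overlap R12H7.4 over 33 bases. The records of these neighbours were low, with inx-10 at 21.3 ± 3.06 CPM in the double mutant and 26.8 ± 4.82 CPM in N2, and R12H7.4 at 2.23 ± 0.338 CPM in the double mutant and 2.13 ± 0.714 CPM in N2 (SD, n = 3 each). No other gene of the 10 overlaps an annotated gene. Reads shared between close relatives within the family would also be uncertain, and how the authors counted them is not stated.

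Among the less abundant genes, the groups lay far apart in asp-13 and overlapped in asp-14. The gene asp-13 stood at 31.3, 14.6 and 25.4 CPM in the double mutant, against 160, 154 and 159 CPM in N2. The N2 libraries were nearly level (coefficient of variation 2.15%) and the mutant ones were not (35.6%). The fitted level was 15.1% of that in N2, or on the log2 scale a fold change of -2.73 ± 0.26 (SE). The gene asp-14 stood at 108, 63.1 and 67.1 CPM in the double mutant, against 95.1, 196.1 and 151 CPM in N2. Replicate 1 of the double mutant was the highest mutant library and replicate 1 of N2 the lowest N2 library, so the groups overlapped. The log2 fold change of asp-14, -0.89 ± 0.30 (SE), did not pass the threshold in edgeR. It did pass without mutant replicate 1, at -1.18, without N2 replicate 1, at -1.15, without a count filter and in DESeq2.

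The furthest apart were asp-16 and asp-17, the least abundant of the 10. The gene asp-16 had 10, 1 and 5 counts in the double mutant, against 646, 181 and 232 counts in N2, which is 0.517, 0.0552 and 0.178 CPM against 35.5, 8.96 and 11.6 CPM. N2 replicate 1 was far above the other N2 libraries, and all mutant libraries were below 1 CPM. The log2 fold change was -6.21 ± 0.79 (SE), with -5.37 without N2 replicate 1 and -7.13 without mutant replicate 1. The gene asp-17 had 6, 8 and 8 counts in the double mutant, against 153, 124 and 161 counts in N2, which is 0.310, 0.441 and 0.285 CPM against 8.41, 6.14 and 8.06 CPM. Unlike asp-16 its N2 libraries were of similar level, and its log2 fold change was -4.45 ± 0.30 (SE). In the authors' deposited table the log2 fold changes were -4.42 for asp-16 and -4.18 for asp-17, and for the other 8 genes they ranged from -2.65 (asp-13) to 0.15 (asp-4). The authors' value for asp-16 lies outside the range over the alternatives used here, -7.13 to -5.37, DESeq2 included. Whether the authors' estimates were drawn towards 0 is not given, so they may not be the same measure as those of edgeR.

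Libraries with the same replicate number deviated together across all records, so the 10 genes were also compared within each number. In 8 genes the mutant was lower than N2 in all 3 numbers. In these 8 every mutant library lay below every N2 library, as in 21.3% of all tested records. That separation fixed the outcome within numbers. In asp-14 the mutant was at -1.63 and -1.17 in numbers 2 and 3 and 0.19 in number 1 (log2 ratio). In asp-4 it was higher in all 3, at 0.22, 0.07 and 0.15. For asp-17 the ratios were -4.39, -3.54 and -4.42, and for asp-16 -5.86, -5.90 and -5.41. A prior count of 2 was added for these ratios, which draws those of low counts towards 0. The counts of asp-16 were 10 against 646, 1 against 181 and 5 against 232, so its ratios look more even than its counts. With the replicate number as a block in the fit, the count of genes past the threshold was again 7.

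**Figure D2:**
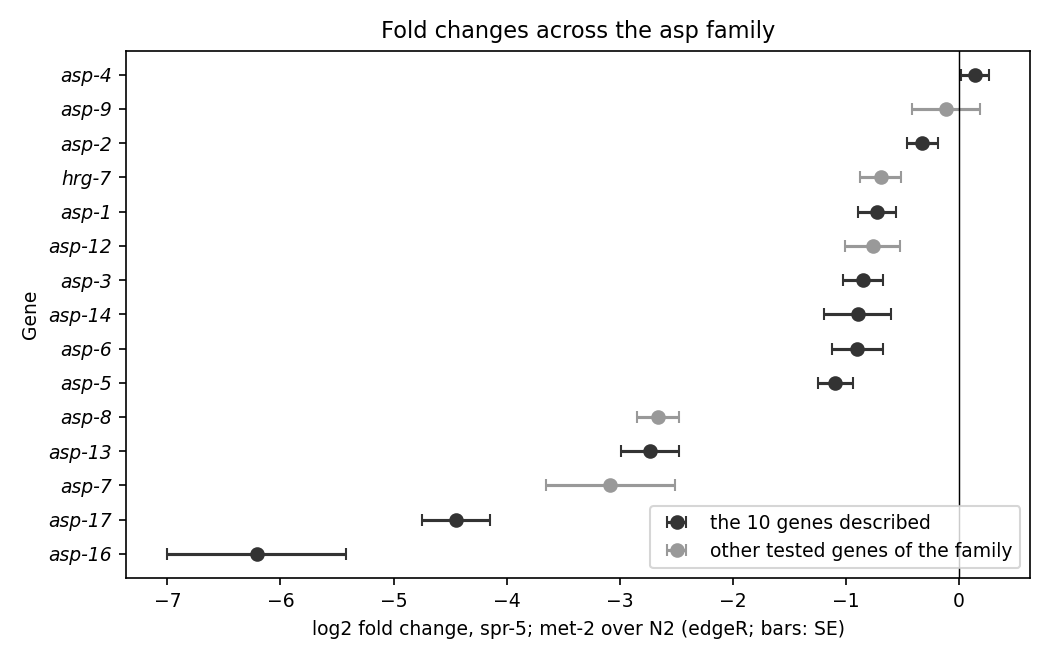
Log2 fold change of spr-5; met-2 over N2 from edgeR, with bars for the SE, for the 10 genes described (dark) and the 5 other tested genes of the family (grey). All values lie below 0 except that of asp-4, and the range runs from -6.21 (asp-16) to 0.14 (asp-4).

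Another 8 genes of the name asp, or hrg-7 (also called asp-10), had a record. Of the 5 of these that were tested, 3 fell, beside 11.7% of all records, and 0 rose in edgeR (4 lower and 0 higher at an unadjusted p below 0.05, and the same in DESeq2). The count falling was 2 without mutant replicate 3, 2 without N2 replicate 2 and 2 with library size only. The gene asp-8 fell to 22.2, 18.98 and 29.1 CPM in the double mutant, against 128, 163 and 154 CPM in N2, and its log2 fold change was -2.66 ± 0.19 (SE), at an edgeR adjusted p of 6.48e-05. The member asp-13 was at -2.73. The gene asp-7, next to asp-8, fell to 0.287 ± 0.119 CPM in the double mutant, against 2.49 ± 1.601 CPM in N2 (SD, n = 3 each), and its log2 fold change was -3.08 ± 0.57 (SE), at an edgeR adjusted p of 0.00646. It was -2.44 without N2 replicate 1. With 3, 7 and 9 counts in the double mutant, asp-7 passed the filter on low counts only by way of N2.

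The intestinal protease gene hrg-7, whose product signals haem status to other tissues, fell to 695 ± 123 CPM in the double mutant, against 1122 ± 178 CPM in N2 (SD, n = 3 each). Its log2 fold change was -0.69 ± 0.18 (SE, edgeR adjusted p = 0.0261). This call was lost without mutant replicate 2 (0.101), without its replicate 3 (0.105), without N2 replicate 2 (0.0841) and with library size only (0.0590), within a range of 0.00579 to 0.105 over all alternatives. Its exons overlap C15C8.7 on the opposite strand over 7 bases. The gene asp-12 was at -0.76 ± 0.24 (log2 fold change, SE) and missed the threshold (edgeR adjusted p = 0.0525), but passed it with the replicate block (0.0239), in DESeq2 (0.0312), in limma voom (0.0342) and without mutant replicate 2 (0.0320), and lay between 0.0239 and 0.189 over the alternatives. The gene asp-9 was level, at -0.11 ± 0.30 (edgeR adjusted p = 0.823). The record of asp-15 held 3 counts in all, 1 and 2 in N2 replicates 1 and 2. Those of asp-18, asp-19 and the second record of hrg-7 had 0 counts in all libraries. For asp-18 and asp-19 this allows up to 0.0457 CPM in the double mutant and 0.0514 CPM in N2 (3 counts over a group, for counting error only). That limit holds only if no reads shared with relatives in the family were dropped, which is not stated. No such limit is given for the second hrg-7 record, as how reads shared between records were counted is not stated.

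Much of the family sits in small groups of neighbouring genes on chromosome V, by the order of genes in RefSeq's annotation of WBcel235. The genes asp-17, asp-16, asp-15 and asp-1 follow each other with no other protein-coding gene between them. Within this run asp-17 and asp-16 were at -4.45 and -6.21 and asp-1 at -0.72 (log2 fold change). The 3 protein-coding genes on either side, looked up after the values were seen, were of mixed direction. On the side of asp-17, Y39B6A.29 was at -0.21 ± 0.37 (log2 fold change, SE), and Y39B6A.25, not tested, had 16, 13 and 8 counts in the double mutant, against 3, 0 and 0 in N2. The nearest, Y39B6A.27, was at 0.181 ± 0.158 CPM in the double mutant and 3.18 ± 1.26 CPM in N2 (SD, n = 3 each), or -4.16 ± 0.61 on the log2 scale (SE). On the side of asp-1, twk-46, nhr-95 and nhr-145 were at 0.27 ± 0.41, -0.54 ± 0.28 and -0.62 ± 0.43.

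The genes asp-6, asp-12 and asp-5 also follow each other, at -0.90, -0.76 and -1.09 (log2 fold change), and asp-12 had 4.54 ± 1.26 CPM in the double mutant and 7.66 ± 0.385 CPM in N2 (SD, n = 3 each). Of the tested genes around them, C16D9.9 was at -0.97 ± 0.18, F21F8.5 at -0.09 ± 0.58 and slc-17.5 at -0.09 ± 0.33. The pair asp-8 and asp-7 had tested neighbours on one side only, irld-38, srw-8 and chpf-2, at 0.47 ± 0.32, -0.77 ± 0.47 and -0.01 ± 0.25. The other members on chromosome V, asp-13 and asp-2, and the 3 on the X chromosome, asp-3, asp-4 and asp-14, stand apart from these runs. On the X chromosome the log2 fold changes ran from -0.89 to 0.14 and on chromosome V from -6.21 to -0.32.

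**Figure D3:**
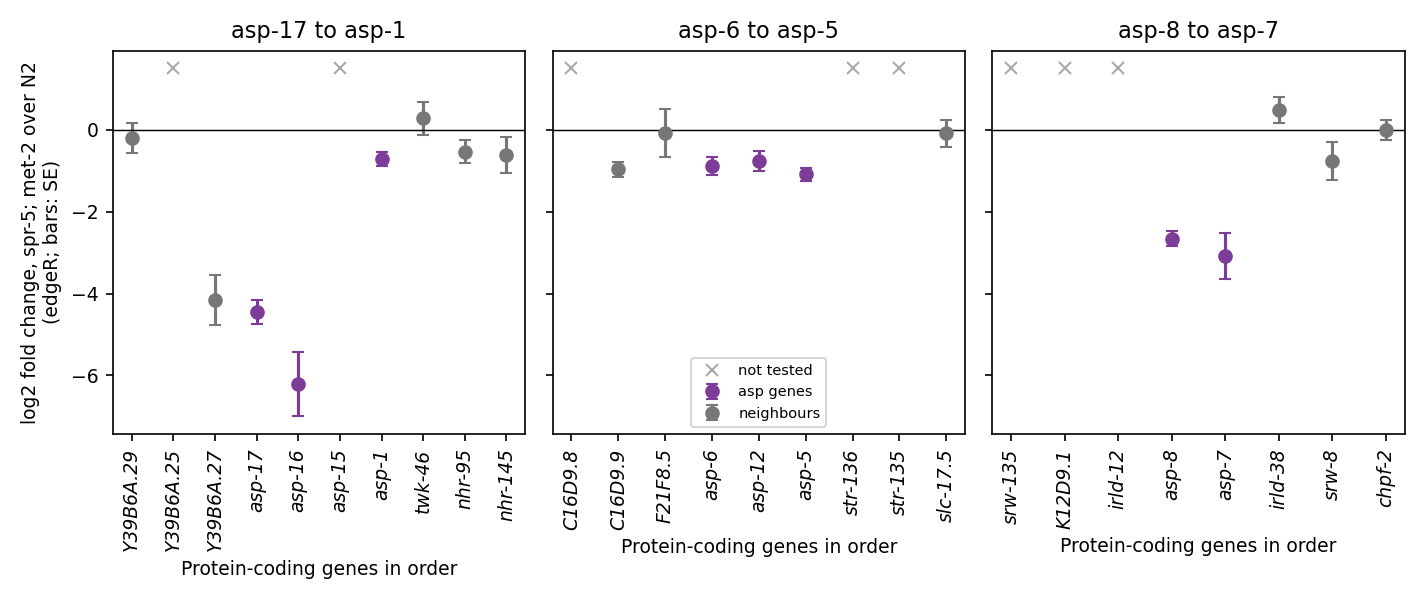
Log2 fold change of spr-5; met-2 over N2 (edgeR, bars: SE) for protein-coding genes in their order along chromosome V around 3 runs of asp genes (purple) with 3 genes on either side (grey); crosses at the top mark genes that were not tested. In the first run asp-17, asp-16 and the neighbouring Y39B6A.27 lie below -4, while asp-1 lies at -0.72.

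The profiles of the 10 genes over the 6 libraries were compared with those of 6418 named genes. These had a mean of at least 10 CPM over the 6 libraries, which can be reached through 1 group alone. The measure was the root mean square difference of log2 CPM, each gene centred on its own mean. Nearest to asp-16 were cpt-3, a carnitine palmitoyl transferase gene, at a difference of 0.714, the lysosomal lipase gene lipl-3 at 0.939, and W04E12.7 at 0.964, where the median gene differed by 2.98. The gene cpt-3 stood at 2.48, 0.221 and 0.712 CPM in replicates 1, 2 and 3 of the double mutant, against 41.6, 10.4 and 14.9 CPM in N2. Like asp-16 and W04E12.7, it was highest in replicate 1 and lowest in replicate 2 of both groups.

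Nearest to asp-17 were Y40H7A.10 at 0.342, W04E12.7 at 0.351 and sqst-5 at 0.543, against a median of 2.06. Those nearest to asp-13 were clec-227 and clec-48, both C-type lectin genes, and dach-1, at 0.151 to 0.190 against a median of 1.43, all 3 on chromosome V. Except clec-48, all these genes near asp-16, asp-17 and asp-13 reached the mean of 10 CPM through N2. Their mutant libraries were at most 4.50 CPM (clec-227), so a low mutant level is part of the likeness. The lipase gene lipl-2 was nearest to asp-14, at 0.180 against a median of 0.615. It shared the low N2 replicate 1, with 16.7, 12.1 and 14.2 CPM in the double mutant, against 15.6, 41.9 and 31.0 CPM in N2.

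For asp-1 to asp-6 the smallest differences were lower, but so was that of the median gene, at 0.301 (asp-4) to 0.583 (asp-5). The smallest differences were 0.0592 for asp-1 and F09B12.3, 0.0391 for asp-5 and the arrestin-domain gene arrd-19, 0.0614 for asp-6 and maa-1, and 0.0786 for asp-3 and the insulin-like peptide gene ins-24. For asp-2 and unc-122 the difference was 0.0370, and for asp-4 and snpc-3.4 it was 0.0331. Within the 10, asp-3 and asp-6 were closest to each other, at 0.09, and asp-4 and asp-16 furthest apart, at 3.07. The measure includes the difference between the groups as well as that among replicates.

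**Figure D4:**
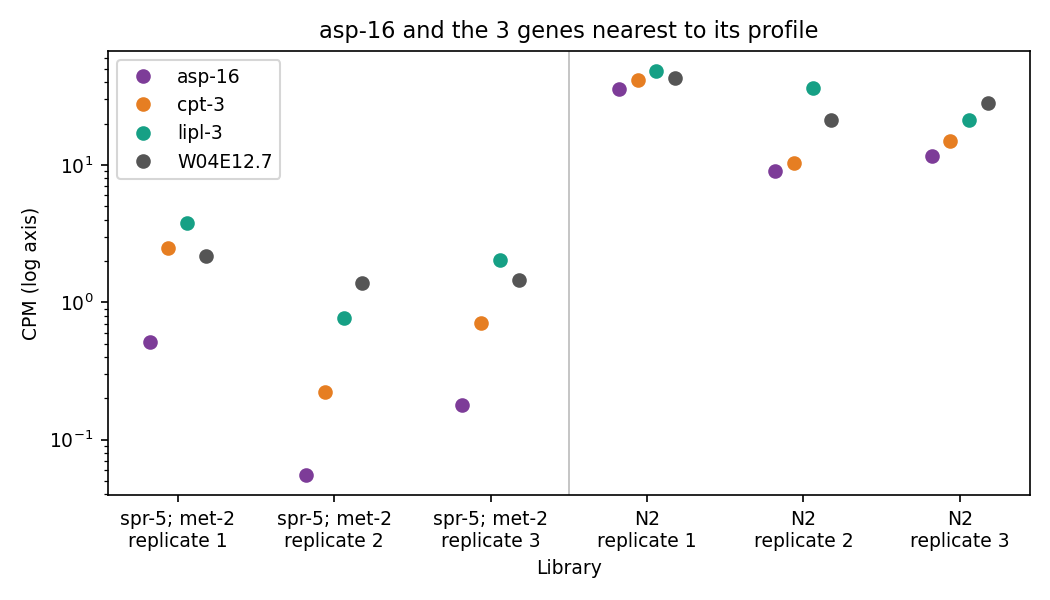
CPM on a log axis of asp-16 and of the 3 genes nearest to its profile, cpt-3, lipl-3 and W04E12.7, in each of the 3 spr-5; met-2 and 3 N2 libraries. Each gene is lower in every spr-5; met-2 library than in every N2 library, and asp-16, cpt-3 and W04E12.7 are each lowest in replicate 2 of both groups.

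Cysteine proteases of the same compartments moved in both directions. Of 10 tested cathepsin genes, 5 fell and 2 rose, beside 11.7% and 14.3% of all records, the median being -0.38 (log2 fold change). The cathepsin B-like gut protease genes cpr-5 and cpr-4 fell to 1154 ± 93.0 and 1174 ± 293 CPM in the double mutant, against 2572 ± 42.2 and 2613 ± 325 CPM in N2 (SD, n = 3 each). Their log2 fold changes were -1.16 ± 0.13 (SE, edgeR adjusted p = 0.000563) and -1.15 ± 0.21 (SE, edgeR adjusted p = 0.00574), beside -1.09 for asp-5. The cathepsin Z gene cpz-2 fell by 1.21 ± 0.17 on the log2 scale (SE). The gut protease gene cpr-1 rose to 1587 ± 149 CPM in the double mutant, against 819 ± 69.5 CPM in N2, and its log2 fold change was 0.95 ± 0.14 (SE), at an edgeR adjusted p of 0.00195. The largest change in the list was that of cpr-2, at -2.88 ± 0.59 (SE, edgeR adjusted p = 0.0102), with 1.15 ± 0.484 CPM in the double mutant and 8.43 ± 6.57 CPM in N2 (SD, n = 3 each). Without N2 replicate 1 it was at -2.05. The other riser was cpr-3, at 1.08 ± 0.23 (SE, edgeR adjusted p = 0.0108). Both were named after their values were seen. The gene cpr-3 is known as a ZIP-10 target alongside asp-17, which was at -4.45. Of 9 serine carboxypeptidase genes 1, ctsa-4.1, rose at 0.59 ± 0.17 (SE, edgeR adjusted p = 0.0387) and 0 fell in edgeR and DESeq2 (3 and 1 at an unadjusted p below 0.05), with a median of 0.06. That call was lost without mutant replicate 1, 2 or 3 and without N2 replicate 2 or 3. With the replicate block 2 rose and 1 fell, and with library size only 3 rose.

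Of 19 tested hydrolase genes outside the proteases, 8 fell, beside 11.7% of all records, and 0 rose in edgeR, with a median of -0.50 (9 lower and 0 higher at an unadjusted p below 0.05 and in DESeq2). They included the lipase genes lipl-3, at -3.996 ± 0.53 (and -4.59 without mutant replicate 1), and lipl-4, at -2.31 ± 0.34. The hexosaminidase gene hex-1 was at -0.75 ± 0.15 and the acid ceramidase gene asah-1 at -0.996 ± 0.22 (log2 fold change, SE). The count that fell was 4 without mutant replicate 2, 4 without its replicate 3, 5 without N2 replicate 2 and 4 with library size only, and the replicate block gave 9 falling and 2 rising. Of 11 lysosomal membrane and transport genes 2 rose, beside 14.3% of all records, and 0 fell (also at an unadjusted p below 0.05 and in DESeq2), with a median of -0.08. The replicate block gave 1 falling. The risers were laat-1, a lysosomal amino acid transporter gene, at 1.01 ± 0.19 and cln-3.3 at 1.05 ± 0.21.

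Of 17 subunit genes of the vacuolar ATPase, the proton pump that acidifies lysosomes and the gut lumen, 2 fell and 1 rose, with a median of -0.23 (8 lower and 1 higher at an unadjusted p below 0.05, 3 lower and 1 higher in DESeq2). Of all tested records 11.7% fell and 14.3% rose at the edgeR adjusted p, the background for the pump, saposin-like and calpain counts at that threshold. For counts at an unadjusted p no share of all records was computed, so the 8 lower pump genes have no background here. The edgeR counts of the pump were near or below it. The intestinal subunit gene vha-6 fell by 0.71 ± 0.14 and vha-15 by 0.50 ± 0.11, and vha-18 rose by 2.99 ± 0.30 (log2, SE). With the replicate block 4 fell, and without mutant replicate 2, mutant replicate 3 or N2 replicate 2 only 1 did. Of 20 saposin-like genes, many of which encode gut antimicrobial or lipid-binding peptides, 8 fell and 2 rose, with a median of -0.39. The gene spp-1 fell to 74.7 ± 11.9 CPM in the double mutant, against 263 ± 23.3 CPM in N2 (SD, n = 3 each), and spp-14, spp-5 and spp-4 were at -1.50 ± 0.20, -1.11 ± 0.15 and -2.77 ± 0.39 (log2 fold change, SE). Of 6 calpain genes, cysteine proteases of which some take part with asp-3 and asp-4 in necrosis, 2 fell and 1 rose, with a median of 0.15. These were clp-4 at -0.56 ± 0.12, clp-1 at -0.79 ± 0.19 and clp-2 at 1.05 ± 0.23. Without mutant replicate 2 or 3 the count falling was 1, and with library size only it was 0.

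**Figure D5:**
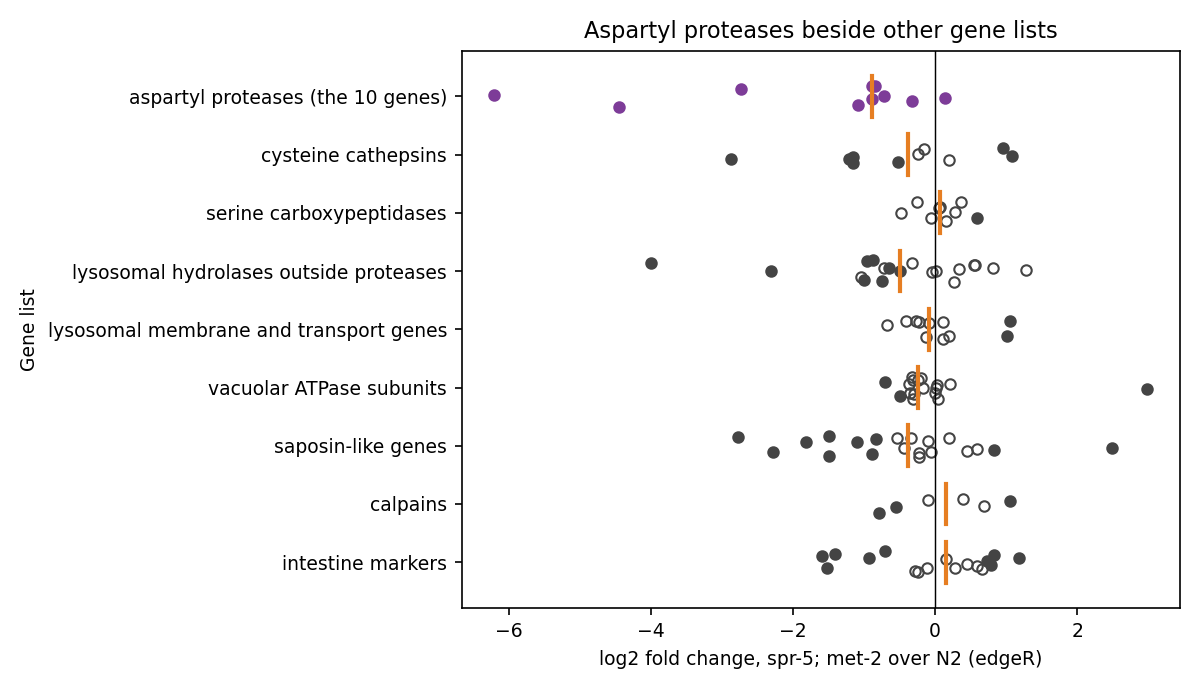
Log2 fold change of spr-5; met-2 over N2 (edgeR) for each tested gene of the aspartyl proteases (purple) and 8 other lists, with the median of each list as an orange bar; in the other lists filled points passed an adjusted p below 0.05 and open points did not. The medians run from -0.89 for the aspartyl proteases to 0.15 for the calpains and intestine markers.

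Transcription factor genes of the gut and of lysosome biology gave 1 riser and 1 faller among 6 tested. Among all records 14.3% rose and 11.7% fell, and the median of the 6 was 0.26. The intestinal GATA factor gene elt-2, whose product binds promoters of gut protease genes, rose to 49.4, 59.7 and 47.4 CPM in the double mutant, against 24.1, 17.4 and 12.4 CPM in N2. Every mutant library exceeded every N2 library, and the log2 fold change was 1.54 ± 0.24 (SE, edgeR adjusted p = 0.00303). The gene mxl-3, which encodes a repressor of lysosomal lipase genes in fed animals, fell to 42.4, 80.6 and 57.6 CPM in the double mutant, against 311, 125 and 124 CPM in N2. Its log2 fold change was -1.63 ± 0.40 (SE, edgeR adjusted p = 0.0203). It missed the threshold without mutant replicate 1 (0.0535) and without its replicate 3 (0.0732), and its adjusted p lay between 0.000182 and 0.0732 over the alternatives. Without N2 replicate 1 its log2 fold change was -1.06. With the replicate block 2 of the 6 rose.

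Intestine markers moved in both directions. Of 17 tested markers 5 fell and 4 rose, beside 11.7% and 14.3% of all records, with a median of 0.15. Their summed level was 2894 to 3480 CPM in the double mutant and 3027 to 3898 CPM in N2, and no marker was at 0. The gut esterase gene ges-1 fell by 1.41 ± 0.25 and the metallothionein gene mtl-2 by 1.53 ± 0.22, while the intestinal intermediate filament gene ifd-2 rose by 0.74 ± 0.11 (log2, SE). With library size only 7 rose and with the replicate block 6 did, while 3 did in DESeq2, the range over the alternatives being 3 to 7. Among all records 2882 rose with library size only and 2755 with the replicate block, against 2075 in the main fit. In bulk RNA of whole larvae, fewer intestinal cells and less RNA per cell cannot be told apart, and the part of cell composition in the protease levels was not tested.

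Markers of other tissues were counted beside the shares of all tested records, 11.7% falling and 14.3% rising. Sums and records at 0 cover every listed marker with a record, tested or not. As the treatment of shared reads is not given, a record at 0 is not taken as absence of its gene. Of 10 tested germline markers 9 rose and 0 fell in edgeR (10 and 0 at an unadjusted p below 0.05 and in DESeq2), with a median of 3.67. The 12 with a record summed to 1406 to 1493 CPM in the double mutant and 92.6 to 140 CPM in N2, with the record of pgl-1 at 0 in all libraries. Those with the smallest adjusted p were prg-1 at 4.52 ± 0.14, htp-3 at 3.103 ± 0.14, htp-1 at 3.74 ± 0.19 and glh-1 at 3.66 ± 0.22 (log2 fold change, SE). Of 7 body wall muscle markers 4 fell (unc-27, tni-1, mup-2 and pat-10, at -0.90 to -0.57) and 0 rose by any of these 3 counts, with no marker at 0 and sums of 12594 to 14690 CPM in the double mutant and 13100 to 20640 CPM in N2. The count falling was 1 without mutant replicate 2, 1 without its replicate 3 and 2 with library size only.

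Of 8 pharynx markers 3 fell (tni-4, tnc-2 and phat-3, at -1.39 to -0.78) and 0 rose by the same 3 counts, with no marker at 0 and sums of 9555 to 12673 CPM in the double mutant and 13072 to 18995 CPM in N2. Without mutant replicate 3 the count falling was 2. Of 10 neuron markers 1, sbt-1, fell by 0.67 ± 0.14 (log2, SE) and 0 rose by the same counts, with no marker at 0 and sums of 1862 to 2255 CPM in the double mutant and 2341 to 3148 CPM in N2, and none fell without mutant replicate 3. Of 5 tested epidermis markers 0 changed in edgeR, at an unadjusted p below 0.05 or in DESeq2. The 10 with a record summed to 36.4 to 294 CPM in the double mutant and 9.73 to 196.4 CPM in N2. Among them the records of elt-1 and elt-3, not tested, were at 0. The most abundant tested marker, dpy-13, was at 0.55 ± 1.09, and at -1.03 without mutant replicate 2. In edgeR the neuron and epidermis counts did not exceed the shares of all records. The part of differences between tissues in the protease levels was not tested.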

How the data were processed

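The authors deposited whole-number counts for 50832 RefSeq transcript records in each of 6 libraries, not normalised. The submitters' processing notes name FastQC, Trimmomatic, featureCounts, DESeq2 (2.11.40.2) and the build ce10. HISAT2 and L4440, the vector used for RNAi by feeding, are named per the file headers of all 6 libraries. No label says whether the HT115 bacteria carried it. How strand and shared reads were treated is not given there. A further table of the authors' own comparison holds, per the file headers, a mean signal, log2 fold changes with errors, a Wald score and p-values.

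Records were named from RefSeq's gene table of WBcel235 (46074 of 50832), and exonic lengths, overlaps and gene order came from WBcel235 annotations. As the builds differ, no coordinates are given. Groups were compared by the quasi-likelihood test of edgeR (4.0.16, R 4.3.3, filterByExpr with minimum count 10 and total 15, and TMM factors of 1.06 to 1.11 for spr-5; met-2 and 0.827 to 0.999 for N2), two-sided, with Benjamini-Hochberg adjustment over 14557 records, called below 0.05. CPM values are given as mean ± SD. The shares of all records given beside counts refer to the edgeR adjusted p or to groups that did not overlap. None was computed for an unadjusted p, so such counts have no background here. In DESeq2 1889 records fell and 2319 rose, of 25389 with a fold change. The SE was taken as the size of the log2 change over the square root of F. The fit recovered known changes in simulated counts. That simulation used a fixed spread and changed only well-expressed records, so it does not cover low counts or libraries of unequal spread. For profiles, ratios within replicate numbers and correlations between libraries, a prior count of 2 was added before log2.

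The 10 genes and all lists were chosen with earlier results of these data known. Named genes are the 10, the other asp genes, spr-5 and met-2, up to 4 genes per list with the smallest adjusted p (or the most abundant where none passed), and the 3 nearest profiles per gene. Gene neighbours, cpr-2 and cpr-3 were added after values were seen. A gene with several records is represented by its most abundant one. Same-numbered libraries deviated together from their group means over all tested records (correlations of 0.457, 0.356 and 0.186 for numbers 1, 2 and 3), so the numbers were taken to pair the libraries. Alternatives were DESeq2's size factors, library size only, no count filter, 1 CPM in 3 libraries, DESeq2 1.42.0, limma voom (3.58.1), the replicate block, records summed per gene and each library left out in turn.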

Additional observations from a re-analysis of the deposited data

How the results depend on the processing

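Each of the 10 genes kept its direction under all 14 alternatives. Their median log2 fold change, -0.89, ranged from -1.097 to -0.67. With library size only, the median of all records moved to 0.21, and the genes shifted with it, asp-4 to 0.36 and asp-2 to -0.09. With that scaling the count of falling records was 827 against 1698, and 77.7% of calls were rises, against 55.0%. With one library left out, the count of all called records ran from 2210 to 3849, of those falling from 800 to 1803, and of the 10 genes past the threshold, all lower, from 4 to 8. With the replicate block 7 of the 10 passed, and 5129 records in all. Beside the counts given above, it called lipl-2 (edgeR adjusted p = 0.0440, against 0.0532), 1 falling lysosomal membrane gene, 1 rising pharynx marker, 1 rising epidermis marker, 2 falling neuron markers and 10 rising germline markers. Single libraries of the double mutant held 1 to 10 counts of asp-16 and 6 to 8 of asp-17, which limits the precision of both fold changes.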
